A study of Mus musculus with 12 samples.

Results

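Expression of 34 genes of fatty acid oxidation and ketogenesis was followed in mouse liver. The genes were taken by symbol from a list of 34 names, and the values used were TPM, a relative transcript level that divides out library size and transcript length. All 34 exceeded 1 TPM in at least 3 of the 12 libraries and were tested together with the other genes that did so, 12120 of 31253 symbols in all. By role, the list holds 2 transcriptional regulators (Ppara and Ppargc1a), 3 genes of fatty acid uptake, binding and activation, 4 of the carnitine shuttle, 11 of mitochondrial beta-oxidation, 3 of electron transfer, 1 of ketone body metabolism, 7 of peroxisomal beta-oxidation and 3 other targets of PPARA. Ketogenesis is represented by Bdh1 alone.

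Livers came from male C57BL6 mice, either wild type (WT) or carrying the S302A knock-in of CUGBP1, an RNA-binding protein whose serine is replaced by alanine in this allele. Mice were untreated (WT_Ctrl and S302A_Ctrl), with no vehicle named in the labels, or had received 50 µg/g of diethylnitrosamine (DEN), which causes liver tumours in mice, when 3 weeks old (WT_DEN and S302A_DEN). Mice of all groups were 33 to 41 weeks old at sacrifice. The labels also give 30 to 38 weeks, which was read as the time after treatment. Each group had n = 3 libraries. The labels do not say that these came from separate animals, so p-values measure the spread between libraries, which may be technical. The S302A change is a point change that transcript levels cannot check.

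Fatty acids entering a hepatocyte are bound by fatty acid binding protein, activated to acyl-CoA, and carried into mitochondria as carnitine esters, where a repeating cycle of dehydrogenase, hydratase, second dehydrogenase and thiolase shortens them to acetyl-CoA. Peroxisomes run a parallel cycle on very long and branched chains and hand the shortened products on. In liver the nuclear receptor PPARA, paired with RXR and activated by fatty acids, is known to drive many of these genes during fasting, and part of the acetyl-CoA is turned into ketone bodies.

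In the TPM values as deposited, these genes lay higher after DEN in wild type and lower in the knock-in. The size of the rise in wild type depended on scaling, as given below. In wild type, 30 of the 34 had a higher mean log2(TPM + 1) after DEN, with a median change of 0.32 against 0.13 over all tested genes, of which 70.7% were higher. In the knock-in 27 of 34 were lower after DEN, with a median of -0.17 against 0.27, while 20.5% of all genes were lower. Leaving out 1 knock-in library, S302A_DEN replicate 3, moved these to 33 of 34 lower, a median of -0.41 against 0.00, and 50.7% of all genes lower. Between the DEN-treated groups, 31 of 34 were lower in S302A_DEN than in WT_DEN, with a median of -0.56 against 0.07, and 39.7% of all genes were lower; without that library all 34 were lower, with a median of -0.80 against -0.20, and 79.0% of all genes were lower. Without DEN the genotypes lay close together, with a median of -0.04 against -0.07 over all genes. With all 12 libraries, the largest differences between the DEN-treated genotypes were in Acaa1b, a peroxisomal thiolase, at -1.79 ± 0.42 (log2 change ± SE), in Fabp1, the liver fatty acid binding protein, at -1.28 ± 0.41, and in Ehhadh, the peroxisomal bifunctional enzyme, at -1.02 ± 0.37. Without that library Acaa1b and Ehhadh had the largest, at -2.41 ± 0.24 and -1.55 ± 0.21, and Fabp1 had -0.72 ± 0.26, smaller than the members' median.

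None of the 34 passed limma's test at an adjusted p below 0.05 (Benjamini-Hochberg over all 12120 genes) in the fit of all 12 libraries. The share of all genes called was 0.132% for DEN in wild type, 0.619% for DEN in S302A, 0.033% for genotype without DEN, 0.38% for genotype after DEN, 0.0413% for the interaction, which asks whether the DEN response differs between genotypes, 1.34% for DEN averaged over the genotypes and 0.0165% for genotype averaged over the treatments. At an unadjusted limma p below 0.05, 6 members were higher after DEN in wild type (8.26% of all genes passed in either direction), 7 were lower after DEN in S302A (16.4%) and 0 differed between untreated genotypes (1.48%). At the same level 19 were lower in S302A_DEN than in WT_DEN (7.83%), 11 had a negative interaction term (5.06%), 3 differed with DEN on average (19.4%) and 10 were lower in the knock-in on average (4.41%). The smallest adjusted p of any member was 0.07047, for Slc27a2 between the DEN-treated genotypes.

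S302A_DEN replicate 3 was unlike the rest. Across tested genes its Spearman correlation with another library was 0.877 to 0.913, against 0.937 to 0.980 between any 2 of the other 11, and 71.6% of all tested genes stood higher in it than in any of the 9 libraries of the other groups. Only 58.1% of its symbols stood at the floor of 1 TPM, against 62.7% to 65.3% elsewhere. Results that rest on S302A_DEN are therefore given by library, or with and without it. From here on, genes said to have risen, fallen or had a negative interaction are those with an adjusted limma p below 0.05 in that direction. With replicate 3 left out, 11883 genes were tested and 24 of the 34 members fell in S302A_DEN relative to WT_DEN, where 5.3% of all genes fell. In the knock-in 7 members fell after DEN (1.21% of all genes fell), in wild type 4 rose (1.93% rose), 7 had a negative interaction (0.463%) and 0 differed between untreated genotypes (0.0337% of all genes were called, and 0 members but 4.16% of all genes had an unadjusted limma p below 0.05).

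A change of scaling kept the direction in the knock-in and made the rise in wild type smaller. Dividing each library by a median-of-ratios factor, which was 1.70 for S302A_DEN replicate 3 and 0.826 to 1.17 for the others, brought the median over all genes from 0.27 to 0.01 for DEN in S302A and from 0.13 to 0.00 for DEN in wild type. With all 12 libraries so scaled, 11 members fell after DEN in S302A (2.68% of all genes fell), 13 fell in S302A_DEN relative to WT_DEN (1.32%), and 0 passed for DEN in wild type (0.149%) or the interaction (0.099%), where 7 and 22 members had an unadjusted limma p below 0.05 (13.7% and 12.8% of all genes). With that scaling and replicate 3 left out together, 12 fell after DEN in S302A (3.49%), 15 fell between the DEN-treated genotypes (2.2%), 5 had a negative interaction (0.48%) and 1, Hadh, rose after DEN in wild type (1.03%). The count of members higher after DEN in wild type was 26 of 34 under median-of-ratios scaling. Under quantile normalization, which gives every library the same distribution, it was 23 of 34, with a median of 0.06 against -0.003 over all genes. With the most abundant genes left out it was 22 of 33, with a median of 0.09 against -0.06. For genotype without DEN the direction turned under median-of-ratios scaling, for the members and for all genes. Of the members 22 of 34 were then higher in S302A_Ctrl (51.4% of all genes), against 15 of 34 in the unscaled values (32.5%). The members' median was 0.04 against 0.01 over all genes when scaled, and -0.04 against -0.07 unscaled.

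**Figure D1:**
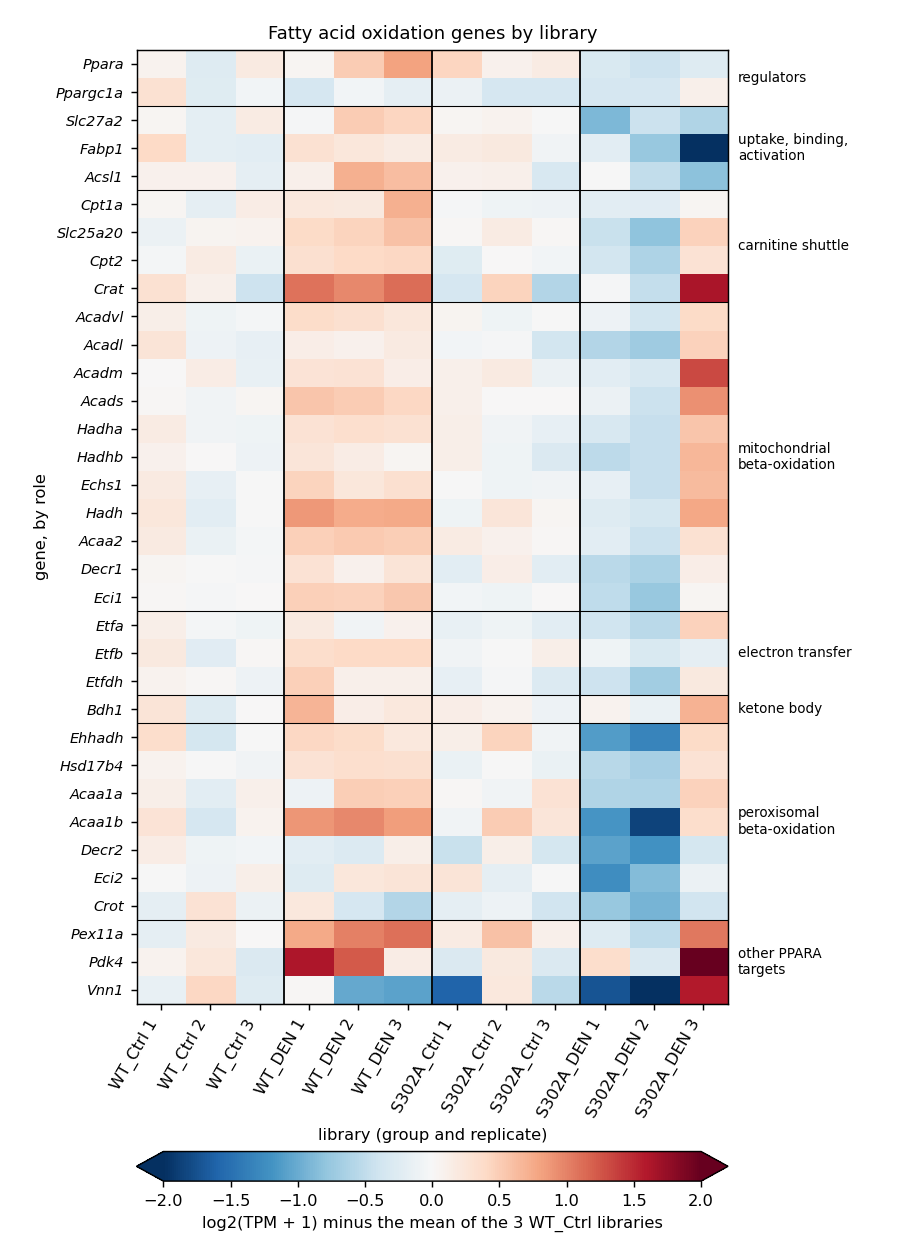
Colour shows log2(TPM + 1) of each of the 34 genes (rows, by role) in each of the 12 libraries (columns) minus the mean of the 3 WT_Ctrl libraries, with the scale ending at -2 and 2. S302A_DEN replicates 1 and 2 are low in most rows, and the WT_DEN libraries and S302A_DEN replicate 3 are higher in most mitochondrial rows.

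Position among the libraries showed which knock-in libraries were low. Replicate 1 of S302A_DEN lay below all 9 libraries of the other groups in 27 of the 34 members, against 11.1% of all genes, and replicate 2 did so in 30, against 27.9%. Both did so in the same 27 members, against 8.99% of all genes. Replicate 3 lay below all 9 in 3 members, Slc27a2, Fabp1 and Acsl1 (3.23% of all genes), and above all 9 in 12, of which 9 were mitochondrial enzymes and 0 peroxisomal. Of all genes 71.6% lay above all 9 in this library, so the members did so at a lower share. It exceeded both other S302A_DEN replicates in 30 members, where 87% of all genes did, and was below both in Fabp1 and Acsl1.

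Measured against each library's own background, the median over the members lay at a similar distance in the 3 treated knock-in libraries. Relative to the S302A_Ctrl mean, the median over the 34 members was -0.31, -0.52 and 0.38 in S302A_DEN replicates 1, 2 and 3, and the median over all tested genes was 0.08, -0.08 and 0.80. The members' median therefore lay 0.40, 0.43 and 0.42 below the all-gene median on the log2 scale in replicates 1, 2 and 3. The mitochondrial median was -0.26, -0.41 and 0.60 there, and the peroxisomal one -0.84, -0.88 and 0.13. Single members differed more: Fabp1 had 13145, 8948 and 3385 TPM in these replicates, and Acadm 152, 141 and 440 TPM. In WT_DEN replicates 1, 2 and 3, set against WT_Ctrl, the members' median lay above the all-gene median by 0.05, 0.30 and 0.21. These are descriptions over genes of single libraries and carry no test. In bulk liver, fewer hepatocytes and less of a transcript per hepatocyte cannot be told apart.

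Levels differed widely among the members in untreated wild-type liver. Fabp1 had the highest mean, 15516 ± 3969 TPM (SD, n = 3). Slc27a2, a very long chain acyl-CoA synthetase and transporter, had 601 ± 75.5 TPM, Acaa2, the mitochondrial thiolase, 568 ± 64.2 TPM and Acaa1b 555 ± 116 TPM, and these 3 differed by less than their SDs. Next came Etfb at 399 ± 57.1 TPM. The lowest were Crat at 6.31 ± 1.79 TPM, Ppargc1a at 1.56 ± 0.507 TPM and Pdk4 at 1.47 ± 0.436 TPM, the last 2 differing by less than their SDs and lying close to the floor of the table.

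Ppara, the receptor at the head of the pathway (chr15:85734983-85802819, plus strand, GRCm38), had 30.6, 24.2 and 33.0 TPM in WT_Ctrl and 39.5, 30.9 and 32.7 TPM in S302A_Ctrl. After DEN it had 29.9, 42.0 and 51.4 TPM in wild type and 23.3, 21.6 and 24.2 TPM in the knock-in. In TPM as deposited, the S302A_DEN libraries lay below every S302A_Ctrl and WT_DEN library and spanned a narrow range, replicate 3 included. The median-of-ratios factors of S302A_DEN replicates 1, 2 and 3 were 0.964, 0.826 and 1.70, so this range and position depend on scaling. The log2 change between the DEN-treated genotypes was -0.78 ± 0.22, with an adjusted limma p of 0.2082, and -0.81 ± 0.22 with replicate 3 left out, with 0.05255. Ppara passed the threshold in 1 of 25 alternative analyses of that comparison, where adjusted p ranged from 0.003177 to 0.7988.

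Ppargc1a, a coactivator of PPARA induced by fasting, had 2.11, 1.12 and 1.43 TPM in WT_Ctrl, 1, 1.43 and 1.22 TPM in WT_DEN, 1.33, 1 and 1.01 TPM in S302A_Ctrl, and 1, 1 and 1.72 TPM in S302A_DEN. It stood above the floor in 8 of 12 libraries, and groups overlapped in every comparison.

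A direct repeat, AGGTCA followed by any 1 base and AGGTCA again, is the element that PPARA and RXR are known to bind, so the promoters were searched for it on both strands. RefSeq promoter windows of build GRCm38.p6, from 250 bases before to 50 after the start, were found for 29 of the 34 genes, with 31 windows. With up to 2 mismatches in the 12 fixed bases, 4 of 31 member windows held the repeat (Fabp1, Echs1, Etfa and Slc25a20), as did 3.86% of all 32851 windows. With up to 1 mismatch only Fabp1 held it, against 0.554% of all windows, and no member window held it with 0 mismatches, against 0.0396%. The 3 matches that lie before the annotated genes are shown, since their letters come close to that repeat. Each line gives the gene's strand, ends before the gene starts in GENCODE M21 and has the repeat in capitals, which in Fabp1 and Etfa is read on the other strand.
Fabp1 (chr6:71199789-71199826, plus strand, 1 mismatch): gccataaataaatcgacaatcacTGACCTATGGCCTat
Echs1 (chr7:140116477-140116527, minus strand, 2 mismatches): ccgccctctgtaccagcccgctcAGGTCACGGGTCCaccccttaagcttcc
Etfa (chr9:55512284-55512343, minus strand, 2 mismatches): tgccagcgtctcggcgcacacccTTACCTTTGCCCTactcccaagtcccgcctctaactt
The matches begin 67, 83 and 77 bases before the RefSeq starts of Fabp1, Echs1 and Etfa. A match describes letters and is not a measured binding site, and binding was not measured in these samples.

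Fabp1 carries fatty acids through the hepatocyte cytosol (chr6:71199827-71205023, plus strand). Its levels were 20098, 13289 and 13161 TPM in WT_Ctrl, 18706, 17843 and 16954 TPM in WT_DEN and 17046, 17420 and 14553 TPM in S302A_Ctrl. In S302A_DEN they were 13145, 8948 and 3385 TPM, so that all 3 lay below every library of the other groups. Replicate 3, the highest S302A_DEN library for 30 of the 34 members, was the lowest for this one. The change after DEN in S302A was -1.15 ± 0.41, with an adjusted limma p of 0.2094, and -0.59 ± 0.26 with replicate 3 left out. The share of the summed TPM of all 34 members in the library total was 1.66%, 1.21% and 0.932% in S302A_DEN replicates 1, 2 and 3 and 1.78% to 2.52% elsewhere, a sum that Fabp1 dominates. Without Fabp1 the members summed to 3709, 3344 and 6082 TPM in these replicates and to 4804 to 6944 TPM in the other 9 libraries.

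The other genes of uptake and activation behaved in a similar way. Slc27a2 had 319, 443 and 392 TPM in S302A_DEN, below all 9 other libraries, which ranged from 519 to 854 TPM. Its change relative to WT_DEN was -0.95 ± 0.20 with all libraries (adjusted limma p 0.07047) and -0.97 ± 0.20 without replicate 3 (0.02096), and over 25 alternatives adjusted p ran from 0.0002405 to 0.4437. Acsl1, the main long-chain acyl-CoA synthetase of liver, had 276, 197 and 156 TPM in S302A_DEN and 299, 456 and 428 TPM in WT_DEN, groups that did not overlap, and its change was -0.92 ± 0.24 (adjusted limma p 0.1665), and -0.73 ± 0.22 without replicate 3.

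In the carnitine shuttle, Cpt1a forms acylcarnitine at the outer mitochondrial membrane and is the rate-controlling step (chr19:3322334-3385733, plus strand). It had 58.9, 51.0 and 63.7 TPM in WT_Ctrl, 67.0, 65.8 and 94.9 TPM in WT_DEN, 56.8, 54.0 and 53.5 TPM in S302A_Ctrl and 49.4, 48.9 and 59.0 TPM in S302A_DEN. The WT_DEN libraries lay above all others, and S302A_DEN overlapped both untreated groups. The change between DEN-treated genotypes was -0.51 ± 0.19 (adjusted limma p 0.4098) and -0.60 ± 0.17 without replicate 3 (0.06004), and adjusted p ran from 0.009682 to 1 over 25 alternatives.

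Slc25a20, the carrier that exchanges acylcarnitine for carnitine across the inner membrane, had 40.7, 31.5 and 77.0 TPM in S302A_DEN and 73.0, 76.1 and 83.9 TPM in WT_DEN. Replicates 1 and 2 were the lowest 2 of the 12 libraries and replicate 3 lay within the WT_DEN range. Without replicate 3 it fell relative to WT_DEN, with a change of -1.09 ± 0.14 (adjusted limma p 0.003141), and with all libraries the change was -0.73 ± 0.26 (0.3874). Over 25 alternatives its adjusted p there ran from 0.0001802 to 1, with 7 below 0.05. Cpt2, which regenerates acyl-CoA inside the mitochondrion, had 47.7, 39.97 and 75.5 TPM in S302A_DEN against 76.8 to 82.7 TPM in WT_DEN, groups that did not overlap.

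Crat, carnitine acetyltransferase, had the largest change of any member after DEN in wild type. It had 7.87, 6.71 and 4.36 TPM in WT_Ctrl and 14.1, 12.9 and 14.6 TPM in WT_DEN, without overlap, a log2 change of 1.05 ± 0.46 (adjusted limma p 0.5641). S302A_Ctrl had 4.67, 8.76 and 3.76 TPM and S302A_DEN had 6.003, 4.17 and 21.1 TPM, so that the knock-in groups overlapped and replicate 3 alone was high.

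The 11 mitochondrial beta-oxidation enzymes were all higher in mean after DEN in wild type, from 0.13 to 0.79, with a median of 0.31. Of all genes 70.7% were higher there, and under median-of-ratios scaling 9 of the 11 and 49.4% of all genes were. With replicate 3 left out, Hadh, Eci1 and Acads rose (1.93% of all genes rose), and 10 of the 11 fell in S302A_DEN relative to WT_DEN (5.3% fell), the exception being Acadm. Hadh, the short-chain hydroxyacyl-CoA dehydrogenase, had the largest change of the 11: 180, 133 and 152 TPM in WT_Ctrl against 280, 257 and 261 TPM in WT_DEN. Its S302A_Ctrl libraries had 144, 182 and 157 TPM and its S302A_DEN libraries 128, 120 and 263 TPM. The WT_DEN libraries lay above both untreated groups, and only S302A_DEN replicate 3 reached them. The change after DEN in wild type was 0.79 ± 0.26 with an adjusted limma p of 0.3979, and the same change with an SE of 0.13 passed at 0.02033 when replicate 3 was left out. Over 25 alternatives this p ran from 0.001908 to 0.9656, with 5 below 0.05.

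Acadm, the medium-chain acyl-CoA dehydrogenase, had 177, 195 and 159 TPM in WT_Ctrl, 212, 215 and 193 TPM in WT_DEN, 189, 199 and 162 TPM in S302A_Ctrl and 152, 141 and 440 TPM in S302A_DEN. The value in replicate 3 was the highest of the 12 libraries, and the other 2 were the lowest. Hadha, the alpha subunit of the trifunctional protein, had 83.0, 70.1 and 69.5 TPM in WT_Ctrl, 90.9, 93.5 and 92.0 TPM in WT_DEN, 79.9, 70.1 and 66.1 TPM in S302A_Ctrl and 59.2, 53.4 and 109 TPM in S302A_DEN. It showed the same order, with replicates 1 and 2 at the bottom and replicate 3 at the top. Hadhb, which encodes the beta subunit of the same protein, is transcribed away from Hadha, with 272 bases between their RefSeq starts on chromosome 5. Without replicate 3 both fell relative to WT_DEN, with changes of -0.70 ± 0.13 for Hadha and -0.63 ± 0.14 for Hadhb, and with all libraries the changes were -0.39 ± 0.24 and -0.24 ± 0.27, with adjusted limma p of 0.7841 and 0.905.

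Eci1, the mitochondrial enoyl-CoA isomerase, moves double bonds of unsaturated chains so that they can enter the cycle. It had 102, 99.1 and 101 TPM in WT_Ctrl, 141, 140 and 146 TPM in WT_DEN, 96.9, 94.9 and 101 TPM in S302A_Ctrl and 70.3, 59.4 and 103 TPM in S302A_DEN. The WT_DEN libraries lay above all others. The change relative to WT_DEN was -0.90 ± 0.19 (adjusted limma p 0.07838) and -1.13 ± 0.11 without replicate 3 (0.0009575), and over 25 alternatives adjusted p ran from 4.08e-05 to 0.5738, with 7 below 0.05.

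The electron transfer flavoprotein subunits Etfa and Etfb and their dehydrogenase Etfdh, which pass electrons from the acyl-CoA dehydrogenases to the respiratory chain, were all lower in mean in S302A_DEN than in WT_DEN, from -0.57 to -0.22. Etfb did not follow replicate 3 upward: its S302A_DEN libraries had 375, 319 and 350 TPM, below the 379 to 432 TPM of S302A_Ctrl and the 504 to 522 TPM of WT_DEN. In Etfb 49.9% of the 31-base words of its transcripts also occur in other genes, 47.3% in Gm45233, so its reads could be split between them. The ketone body enzyme Bdh1, hydroxybutyrate dehydrogenase, had 76.8, 53.1 and 64.1 TPM in WT_Ctrl, 103, 70.0 and 74.1 TPM in WT_DEN, 70.1, 67.1 and 59.2 TPM in S302A_Ctrl and 67.1, 58.1 and 104 TPM in S302A_DEN. Groups overlapped in every comparison of Bdh1 that used all 12 libraries.

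**Figure D2:**
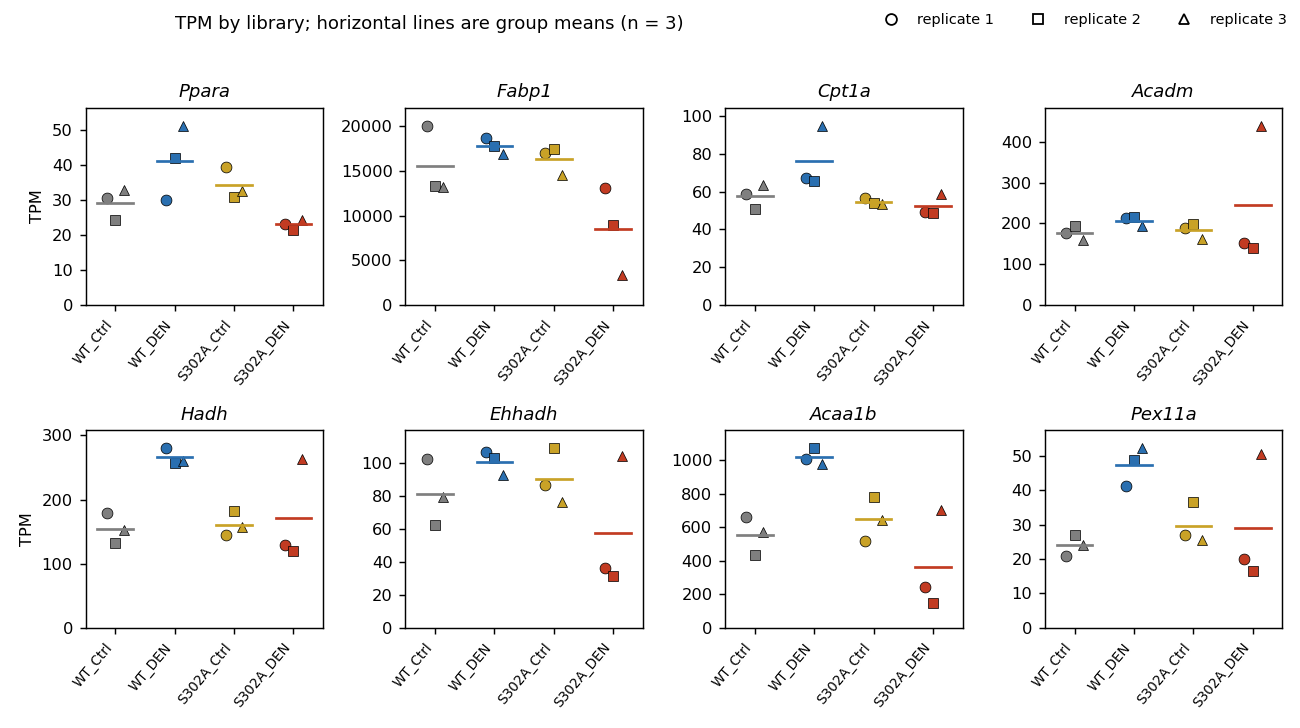
Each panel shows the TPM of 1 gene (vertical axis, starting at 0) in the 12 libraries by group, with a marker shape for each replicate number and a line at the group mean (n = 3). In Ppara, Fabp1 and Cpt1a replicate 3 of S302A_DEN lies near or below the other 2, while in Acadm, Hadh, Ehhadh, Acaa1b and Pex11a replicate 3 lies far above the other 2.

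Peroxisomal beta-oxidation enzymes lay further below their levels in the other groups than the mitochondrial ones did. All 7 were lower in mean after DEN in the knock-in, with a median of -0.65 and a range of -1.11 to -0.22, and all 7 were lower in S302A_DEN than in WT_DEN, with a median of -0.76. In wild type 5 of the 7 were higher after DEN. With replicate 3 left out, 5 of 7 fell after DEN in the knock-in (Ehhadh, Hsd17b4, Acaa1b, Decr2 and Eci2), against 1 of the 11 mitochondrial beta-oxidation enzymes (1.21% of all genes fell). Relative to WT_DEN, 6 of 7 fell, as did 10 of the 11 (5.3% of all genes). Under median-of-ratios scaling 5 of 7 and 4 of 11 fell after DEN in the knock-in (2.68% of all genes). The difference between the sets was not tested, because both were chosen with these data known.

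Acaa1b, the thiolase that completes the peroxisomal cycle (chr9:119148023-119157093, minus strand), had 660, 431 and 573 TPM in WT_Ctrl and 1008, 1070 and 977 TPM in WT_DEN. In the knock-in it had 521, 777 and 644 TPM without DEN and 241, 151 and 701 TPM after DEN. WT_DEN lay above every other library, and S302A_DEN replicates 1 and 2 lay below every other one. The change between DEN-treated genotypes was -1.79 ± 0.42 (adjusted limma p 0.1097) with all libraries and -2.41 ± 0.24 (0.0009575) without replicate 3, and ran from 4.52e-05 to 0.7131 over 25 alternatives, with 7 below 0.05. The interaction was -2.01 ± 0.60 (0.4907) and -2.63 ± 0.32 (0.006897) in the same fits, and over 24 alternatives its adjusted p ran from 0.001546 to 1, with 4 below 0.05. Its neighbour Acaa1a (chr9:119339676-119350299, plus strand) encodes a near-identical enzyme, and 40% of the 31-base words of Acaa1b transcripts also occur in Acaa1a, so the split of reads between them is uncertain. Acaa1a had 63.0, 62.1 and 132 TPM in S302A_DEN and 89.5, 135 and 134 TPM in WT_DEN.

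Ehhadh, the bifunctional hydratase and dehydrogenase of the classical peroxisomal pathway (chr16:21761287-21787807, minus strand), had 102, 62.0 and 79.4 TPM in WT_Ctrl, 107, 103 and 92.6 TPM in WT_DEN and 86.2, 109 and 76.1 TPM in S302A_Ctrl. In S302A_DEN it had 36.3, 31.3 and 104 TPM. Replicates 1 and 2 were well below the other 10 libraries and replicate 3 lay among the highest. The change after DEN in the knock-in was -0.85 ± 0.37 (adjusted limma p 0.2902), and -1.38 ± 0.21 (0.01066) without replicate 3, and over 25 alternatives adjusted p ran from 0.0015 to 0.9445, with 7 below 0.05.

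The promoters of Acaa1b and Ehhadh are shown because these peroxisomal genes differed most between the DEN-treated genotypes. Each line gives the 100 bases before the RefSeq start on the gene's strand, with a CCAAT box, which reads ATTGG here because it lies on the other strand, in capitals. Neither 300-base window held the PPARA repeat with up to 2 mismatches. The box was looked for after the sequences were seen, and 38.7% of member windows and 37.4% of all windows hold it on either strand.
Acaa1b (chr9:119157094-119157193, minus strand): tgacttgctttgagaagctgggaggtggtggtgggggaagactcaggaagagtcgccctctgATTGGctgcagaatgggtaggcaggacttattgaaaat
Ehhadh (chr16:21787835-21787934, minus strand): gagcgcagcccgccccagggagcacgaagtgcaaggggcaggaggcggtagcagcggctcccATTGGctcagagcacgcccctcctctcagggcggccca

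Of the other peroxisomal enzymes, Decr2, the peroxisomal dienoyl-CoA reductase, had 46.4, 41.9 and 77.0 TPM in S302A_DEN and 85.0, 81.7 and 107 TPM in WT_DEN, without overlap. Eci2, an enoyl-CoA isomerase found in both organelles, had 60.6, 79.1 and 133 TPM in S302A_DEN and 121 to 174 TPM in WT_DEN. Hsd17b4, the D-specific bifunctional enzyme, had 113, 104 and 204 TPM against 202 to 209 TPM. Crot, which makes carnitine esters of medium chains for export from the peroxisome, had 141, 124 and 181 TPM against 157 to 274 TPM and was lower after DEN in both genotypes, with changes of -0.24 ± 0.23 in wild type and -0.46 ± 0.23 in the knock-in, and passed the test in neither.

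Set against each other, the peroxisomal enzymes were low relative to the mitochondrial ones in all 3 treated knock-in libraries. The mean log2(TPM + 1) over 7 peroxisomal enzymes minus that over 17 mitochondrial enzymes was -0.34, -0.30 and -0.06 in S302A_DEN replicates 1, 2 and 3, and 0.09 to 0.40 in the other 9 libraries. Its mean was 0.30 ± 0.05 (SD, n = 3) in the untreated and 0.19 ± 0.09 in the treated wild type, 0.33 ± 0.07 in the untreated and -0.23 ± 0.15 in the treated knock-in. As a share of the summed TPM of both sets, the peroxisomal enzymes made up 23.2%, 22.6% and 29.0% in S302A_DEN and 32.1% to 36.3% elsewhere. Relative to S302A_Ctrl, the peroxisomal median lay 0.59, 0.47 and 0.46 below the mitochondrial one in replicates 1, 2 and 3, and in WT_DEN, relative to WT_Ctrl, the peroxisomal minus mitochondrial difference was -0.14, 0.05 and -0.05.

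The gap depended on how the sets were averaged. With means, the S302A_DEN libraries stayed below the other 9 with Eci2 left out, with Acaa1b left out, a variant chosen after the data were seen, and with Acaa1a and Acaa1b summed. With the median over each set in place of the mean they did not: S302A_DEN then had -0.34, 0.12 and -0.25 and the other libraries -0.21 to 0.57. Taken singly against the mitochondrial mean, Hsd17b4 and Decr2 were the 2 peroxisomal genes for which all 3 S302A_DEN libraries lay below the other 9.

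**Figure D3:**
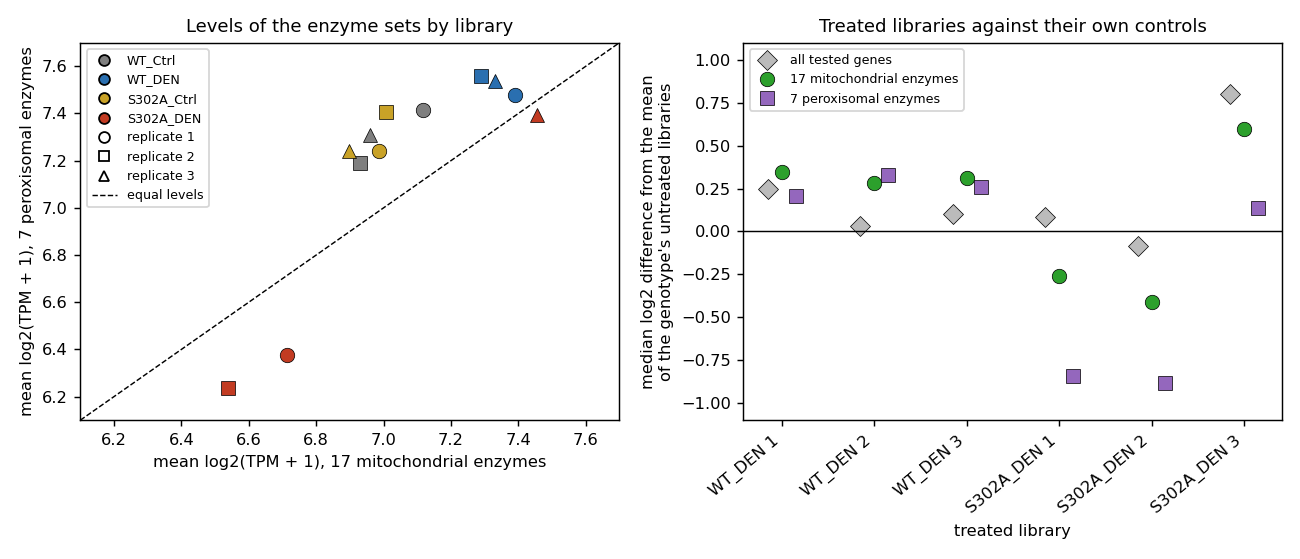
Left, the mean log2(TPM + 1) of the 7 peroxisomal enzymes (vertical) against that of the 17 mitochondrial enzymes (horizontal) in each library, with a dashed line where they are equal: the S302A_DEN libraries alone lie below it. Right, for each treated library, the median log2 difference from its genotype's untreated mean over all tested genes and over each enzyme set: in S302A_DEN the peroxisomal median lies lowest in every replicate.

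Pex11a, a peroxisome division factor and PPARA target, had 20.8, 27.1 and 24.0 TPM in WT_Ctrl, 41.1, 48.9 and 52.2 TPM in WT_DEN, 26.9, 36.5 and 25.6 TPM in S302A_Ctrl and 19.9, 16.6 and 50.6 TPM in S302A_DEN. It was about as high in S302A_DEN replicate 3 as in WT_DEN, and lowest in the other 2. Relative to WT_DEN its change in S302A_DEN was -0.85 ± 0.33, and -1.33 ± 0.18 without replicate 3. After DEN in wild type it was 0.95 ± 0.33 (adjusted limma p 0.4369), and it passed with replicate 3 left out (0.02169). Over 25 alternatives adjusted p ran from 0.002679 to 1, with 4 below 0.05.

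Pdk4, the kinase that shuts off pyruvate oxidation during fasting, had 1.57, 1.86 and 1 TPM in WT_Ctrl, 6.51, 4.73 and 1.72 TPM in WT_DEN, 1, 1.81 and 1 TPM in S302A_Ctrl and 2.12, 1 and 24.3 TPM in S302A_DEN. It stood above the floor in 8 of 12 libraries, and replicate 3 alone was high in S302A_DEN. Vnn1, a pantetheinase and PPARA target, had 12.3, 18.7 and 11.4 TPM in WT_Ctrl, 14.1, 6.28 and 6.02 TPM in WT_DEN, 3.86, 16.1 and 9.19 TPM in S302A_Ctrl and 3.49, 2.65 and 43.5 TPM in S302A_DEN. Its change between untreated genotypes, -0.65 ± 0.78, was the largest of the 34 there and smaller than its SE. Among the members only Etfa had untreated groups that did not overlap, lower in S302A_Ctrl, where 5.27% of all genes did so.

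Without DEN, no member moved by more than 0.65 on the log2 scale. After DEN in wild type, 18 members had groups that did not overlap, all higher, where 21.7% of all genes did so. After DEN in the knock-in 4 had lower groups without overlap (Ppara, Slc27a2, Fabp1 and Etfb), where 2.68% of all genes did so, and 29 did so with replicate 3 left out, where 15.7% of all genes did. Between the DEN-treated genotypes 11 were lower without overlap (6.19% of all genes), and 32 with replicate 3 left out (38.2%).

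**Figure D4:**
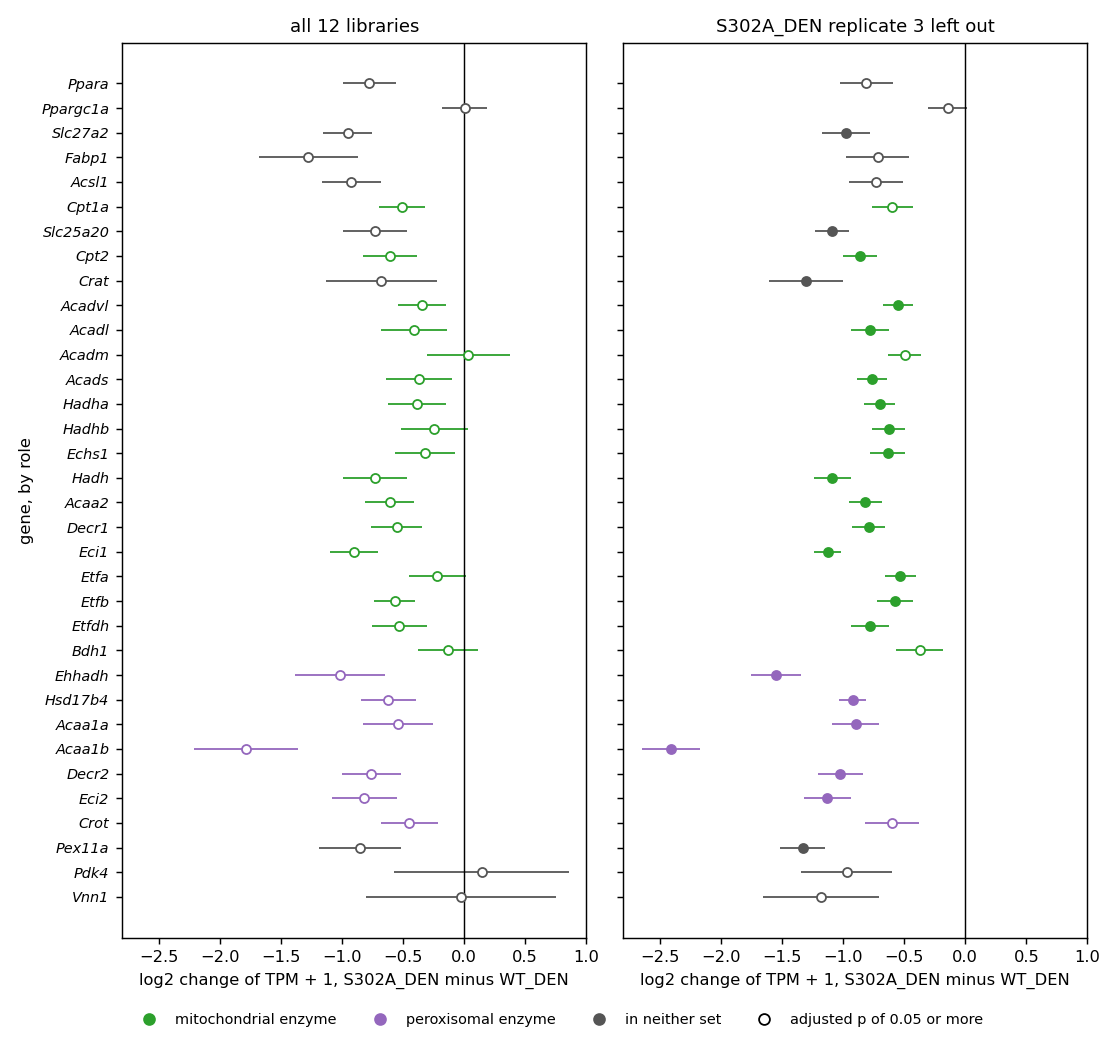
Points are the limma log2 change of TPM + 1 between S302A_DEN and WT_DEN for each of the 34 genes with its standard error as a bar, on all 12 libraries (left) and with S302A_DEN replicate 3 left out (right). Filled points have an adjusted p below 0.05, 0 of 34 on the left and 24 of 34 on the right, and Acaa1b lies lowest in both.

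Of 72 further genes of the pathway, listed by name with earlier results of these data known, 71 were tested. In the fit of all 12 libraries 4 were called between the DEN-treated genotypes, all lower in S302A_DEN and Acot3, Cyp4a10 and Hacl1 among them (0.38% of all genes were called). For DEN in wild type 1 rose, Acot3 (0.132%), and for DEN averaged over both genotypes 2 rose, Fgf21 and Plin5 (1.34%). None was called for DEN in the knock-in, for genotype without DEN or for the interaction, where 10, 0 and 16 of the 71 had an unadjusted limma p below 0.05, against 16.4%, 1.48% and 5.06% of all genes. Their median change between the DEN-treated genotypes was -0.32, with 55 of 71 lower, where 39.7% of all genes were lower. With replicate 3 left out, 26 of 71 fell there (5.3% of all genes fell).

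Cyp4a10, a fatty acid omega-hydroxylase whose reads can be shared with its paralogs, had 91.9, 186 and 137 TPM in WT_DEN and 1.88, 4.09 and 41.6 TPM in S302A_DEN, a change of -3.97 ± 0.75 (adjusted limma p 0.04772). Hacl1, the peroxisomal lyase of branched chains, had 187, 195 and 182 TPM against 77.6, 51.1 and 85.6 TPM, a change of -1.42 ± 0.25 (0.03903). Acot3, a peroxisomal acyl-CoA thioesterase, had 5.42, 18.1 and 17.6 TPM in WT_DEN and 1, 1 and 2.17 TPM in S302A_DEN, a change of -2.50 ± 0.38 (0.01721), and 2.44 ± 0.38 after DEN in wild type (0.03514), a call lost under median-of-ratios scaling (0.05134). Groups did not overlap in any of these 3 genes, all of which also fell with replicate 3 left out.

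Fgf21, a fasting hormone and PPARA target, was higher after DEN in both genotypes, with 1 to 1.35 TPM in WT_Ctrl, 5.24 to 17.4 TPM in WT_DEN, 1.54 to 2.51 TPM in S302A_Ctrl and 5.84 to 73.0 TPM in S302A_DEN. Plin5, a lipid droplet protein that tethers droplets to mitochondria, had 9.41 to 18.6 TPM in WT_Ctrl, 30.9 to 40.2 TPM in WT_DEN, 9.79 to 15.0 TPM in S302A_Ctrl and 13.4 to 30.6 TPM in S302A_DEN. Abcd2, a peroxisomal fatty acid transporter, had 3.26 to 4.11 TPM in WT_DEN and 1 to 3.60 TPM elsewhere. It was not called on all 12 libraries as deposited, but with replicate 3 left out it rose after DEN in wild type (adjusted limma p 0.02684) and fell in S302A_DEN relative to WT_DEN (0.0175), as it also did under median-of-ratios scaling (0.04114).

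Markers of other cell types and states moved with some groups. All 8 hepatocyte markers were present, and their summed TPM was 51875 to 60154 in S302A_DEN, 72156 to 86905 in WT_DEN, 43613 to 55823 in S302A_Ctrl and 39069 to 63454 in WT_Ctrl. Alb carried most of that sum, with 26444 to 33122 TPM in S302A_DEN and 46307 to 56369 TPM in WT_DEN, whereas Apoa1 had 10149 to 15420 and 8533 to 12150 TPM and Hnf4a 149 to 187 and 144 to 177 TPM. Of 6 cholangiocyte markers, 4 exceeded 1 TPM in any library, Krt7 and Cftr stayed at the floor, and the sum, mostly Spp1, was 61.7 to 141 in S302A_DEN against 19.1 to 37.7 in the other groups. A list of 5 tumour and fetal liver genes summed to 751 in S302A_DEN replicate 3 and to 7.40 to 33.3 in the other 11 libraries. Ly6d at 422 TPM and Nqo1 at 239 TPM carried most of the 751, with Gpc3 at 51.4 and Afp at 37.7 TPM. H19 stayed at the floor in every library. In S302A_DEN replicate 3, 6 stellate cell markers summed to 140 and 6 macrophage markers to 171, against 27.1 to 74.0 and 31.9 to 106 in the other 11. Summed clock genes were 94.8 to 109 in S302A_DEN, 111 to 141 in WT_DEN, 167 to 283 in S302A_Ctrl and 96.4 to 217 in WT_Ctrl. That sum joins genes that moved in opposite directions. Nfil3 had 5.27 to 11.4 TPM in the untreated libraries and 17.6 to 41.4 TPM in the treated ones. Nr1d2 had 13.9 to 28.0 TPM untreated and 6.74 to 10.7 TPM treated. The other clock genes overlapped between treated and untreated libraries. The hour of collection is not in the labels. A list of fasting and feeding genes summed to 887 to 1557 in S302A_DEN and 1172 to 1594 in WT_DEN. Adipocyte, striated muscle and pancreas markers stood at 1 in every library. The part of these markers in the results was not tested.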

How the data were processed

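RNA-seq of mouse liver, in 12 libraries, was used. The authors deposited 1 table per library with TPM values per gene symbol, made with kallisto against mm10 per the submitters' processing notes; no kallisto version or annotation is given in the sources used here. No value is below 1 TPM, a floor the notes do not mention, and read depth is unknown. The values were analysed as log2(TPM + 1), so fold changes of low genes are understated. Genes above 1 TPM in at least 3 of 12 libraries were kept (12120 of 31253 symbols). limma 3.58.1 in R 4.3.3 fitted 1 model of the 4 groups, with 8 residual degrees of freedom and a mean-variance trend, and p-values were Benjamini-Hochberg adjusted across the tested genes; calls needed a value below 0.05. The fit was tested on simulated data with changes planted in WT_DEN alone. Their spreads were taken from residuals without S302A_DEN replicate 3, so the simulation cannot show how that library affects the calls. The 34 members, the roles and the other lists were chosen with earlier results of these data known. Values in every library are given for the 3 members with the largest change in each comparison of 2 groups, for both regulators and for a representative of each step; others named were chosen after their values were seen. Promoter windows came from RefSeq (GRCm38.p6), gene coordinates and shared 31-base words from GENCODE M21. Alternatives covered pseudocount, filter, scaling, weights, moderation, model and each library left out; leaving out S302A_DEN replicate 3 together with another change was added after seeing the data. Some genes of the further pathway list are not reported here by name.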

Additional observations from a re-analysis of the deposited data

Results flagged for a closer look

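For 3 genes every treated library moved against the other genotype: each WT_DEN library lay above the WT_Ctrl mean in TPM and each S302A_DEN library lay below the S302A_Ctrl mean. The DEN response in S302A minus that in wild type was -1.0026 on the log2 scale for Ppara, the fatty acid receptor, with an adjusted limma p of 0.52; its WT_DEN replicate 1, at 29.9 TPM, was barely above the WT_Ctrl mean of 29.3 TPM. It was -1.38 for Fabp1, the fatty acid binding protein, with 0.8678, and -0.59 for Etfb, an electron transfer flavoprotein subunit, with 0.8381. None of the 3 differences passed the test on all 12 libraries. S302A_DEN replicate 3 was high for most other members. That it shared the direction of replicates 1 and 2 in these 3 genes follows from the rule that picked them. The share of all genes that meet this rule is not given here.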

How the results depend on the processing

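Counts of members called, 0 of 34 in every comparison on all 12 libraries, depended on S302A_DEN replicate 3, on scaling and on library weights. The share of all genes called in either direction in the same fit stands in brackets. For DEN in wild type the count was 16 with array quality weights (17%), 2 with the libraries of the comparison alone (1.28%), and, with replicate 3 left out, 1 with median-of-ratios scaling (1.77%) and 5 with the replicate block (3.75%). For DEN in S302A it was 11 with median-of-ratios scaling (5.18%), 10 with quantile normalization (5.61%), 9 with the most abundant genes left out (5.43%) and 13 with weights (13.3%), and with replicate 3 left out 12 with scaling (7.09%) and 6 with the block (2.78%). For genotype after DEN it was 13 (1.85%), 5 (1.55%), 7 (1.73%) and 28 (16.5%) under those 4 settings, and 15 (3.54%) and 26 (10.4%) with replicate 3 left out. The interaction gave 17 with weights (4.19%), and with replicate 3 left out 5 under scaling (0.757%) and 5 under the block (0.471%). The DEN effect averaged over genotypes gave 1 (5.7%), 3 (5.93%), 3 (5%) and 7 (26.2%) under the 4 settings, and 5 (9.96%) and 1 (7.34%) with replicate 3 left out. The averaged genotype effect gave 17 with weights (2.99%), and 1 (0.295%) and 12 (1.71%) with replicate 3 left out. Leaving out 1 library at a time gave 0 to 4 for DEN in wild type, 0 to 7 for DEN in S302A, 0 for genotype without DEN, 0 to 24 for genotype after DEN, 0 to 7 for the interaction, 0 to 2 for averaged DEN and 0 to 7 for averaged genotype, with the highest count each time without S302A_DEN replicate 3. For DEN in wild type, a comparison without S302A_DEN libraries, the members' median change was 0.32 with and without replicate 3. There the fits differed in the spread shared by the groups and in the set of tested genes. The cause of the other shifts was not tested.

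The replicate block alone gave 0 member calls in all 7 comparisons. Residuals of same-numbered libraries correlated from -0.187 to 0.282, with 5 of 18 over 0.1, and those of different numbers from -0.230 to 0.255. Of the 12 libraries, 2 correlated best with their own number. No clear pairing by number was seen, but groups of 3 are too small for this check to exclude one. Of 1335 values of single genes under alternatives, 1170 kept direction and side of the threshold, 164 newly passed it and 1 reversed: Pdk4 after DEN in S302A, -0.06 with replicate 3 left out and the replicate block. The peroxisomal minus mitochondrial level was 0.40 in S302A_Ctrl with medians over the members, and 0.46 in WT_Ctrl, 0.32 in WT_DEN and 0.47 in S302A_Ctrl with Acaa1a and Acaa1b summed. Leaving out libraries gave 0.28 to 0.32, 0.15 to 0.24, 0.30 to 0.37 and -0.32 to -0.18 in WT_Ctrl, WT_DEN, S302A_Ctrl and S302A_DEN. The fit on the libraries of a comparison alone cannot give the interaction or averages, and Fabp1 is among the most abundant genes left out. Groups of 3, unknown depth and the floor at 1 TPM limit precision, most for Pdk4 and Ppargc1a.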
